A study of Mus musculus with 34 samples.

Results

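The genes followed here were 10 genes of the pluripotency network and the epiblast, Pou5f1, Nanog, Sox2, Klf4, Klf2, Esrrb, Tfcp2l1, Zfp42, Fgf4 and Tdgf1, in single mouse embryos. They were chosen by symbol, and all 10 were present among the 49686 symbols of the zygote and late 2-cell tables and the 51734 symbols of the blastocyst table. Zygotes had been injected with mRNA encoding CHK1, a checkpoint kinase of the DNA damage response, either as the wild-type form (WT) or with the change R442Q. Of 34 embryos, each sequenced as 1 library, 11 were zygotes (5 WT, 6 R442Q), 9 had reached the late 2-cell stage (4 WT, 5 R442Q) and 14 were blastocysts (7 of each genotype). Blastocysts of both groups had been cultured in KSOM medium with 30 nM of a CHK1 inhibitor, and the zygotes and late 2-cell embryos had no treatment by their labels. Every embryo therefore carried injected mRNA beside its own Chek1 gene, uninjected embryos and blastocysts without inhibitor were not analysed here, and the mouse strain was not given in the sources used here.

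In the mouse, the inner cell mass of the blastocyst forms the epiblast, which gives rise to the embryo proper, and the primitive endoderm, while the outer trophectoderm contributes to the placenta. POU5F1, SOX2 and NANOG are the transcription factors at the core of the pluripotency network, and they bind together at many of its enhancers. KLF2, KLF4, ESRRB, TFCP2L1 and ZFP42 (also known as REX1) belong to the naive state of early epiblast and embryonic stem cells, FGF4 is the ligand by which epiblast cells signal to primitive endoderm precursors, and TDGF1 (Cripto) is a coreceptor for Nodal. A whole embryo is a bulk sample, so fewer cells of a type and less RNA per cell cannot be told apart in any value below.

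The promoters of 4 of the genes are shown because Nanog and Pou5f1 are core factors, and because Tdgf1 and Zfp42 had the widest and the narrowest spread between single blastocysts of the 10 genes. Each sequence is 300 bases from RefSeq (GRCm38.p6), from 250 bases before the transcription start to 50 after, written 5′ to 3′ on the strand of the gene. Capitals mark matches on either strand to a joined OCT and SOX site (CATTGT, any base, then ATGCAAA), an octamer (ATGCAAAT), a SOX site alone (CATTGT), a KLF box (CCACCC), an ESRRB site (TCAAGGTCA) or a STAT site (TTCCNGGAA). The SOX site lies within the joined site where both occur.
Nanog promoter (chr6:122707239-122707538, plus strand): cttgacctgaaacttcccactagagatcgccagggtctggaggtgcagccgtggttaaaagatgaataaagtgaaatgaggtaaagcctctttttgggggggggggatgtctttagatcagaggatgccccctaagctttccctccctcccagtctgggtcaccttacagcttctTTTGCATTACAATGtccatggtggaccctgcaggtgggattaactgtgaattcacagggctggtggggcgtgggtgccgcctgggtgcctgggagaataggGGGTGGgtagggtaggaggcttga
Pou5f1 promoter (chr17:35505782-35506081, plus strand): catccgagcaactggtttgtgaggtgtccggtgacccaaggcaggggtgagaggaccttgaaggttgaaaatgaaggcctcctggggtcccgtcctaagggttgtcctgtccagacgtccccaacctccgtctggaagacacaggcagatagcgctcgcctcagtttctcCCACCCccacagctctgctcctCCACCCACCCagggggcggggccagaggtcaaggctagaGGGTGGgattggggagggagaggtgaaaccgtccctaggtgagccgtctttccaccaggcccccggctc
Zfp42 promoter (chr8:43306960-43307259, minus strand): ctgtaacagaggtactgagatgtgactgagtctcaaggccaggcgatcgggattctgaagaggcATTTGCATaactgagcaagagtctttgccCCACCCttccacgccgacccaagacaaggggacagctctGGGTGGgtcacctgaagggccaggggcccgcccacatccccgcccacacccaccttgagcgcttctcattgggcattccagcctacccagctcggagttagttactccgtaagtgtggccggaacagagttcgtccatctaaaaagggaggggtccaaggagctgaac
Tdgf1 promoter (chr9:110946109-110946408, minus strand): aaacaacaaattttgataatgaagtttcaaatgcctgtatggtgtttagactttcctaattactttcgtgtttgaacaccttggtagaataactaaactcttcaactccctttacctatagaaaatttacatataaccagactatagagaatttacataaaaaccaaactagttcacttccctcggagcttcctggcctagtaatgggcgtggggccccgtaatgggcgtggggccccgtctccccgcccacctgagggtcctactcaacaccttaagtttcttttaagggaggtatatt

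The joined OCT and SOX site was found in 2 of 32851 promoter windows of this length (0.00609%), and both windows belong to Nanog, overlap, and hold the same genomic site. In the window shown its first base stands at -75 from the start. The octamer was found in 1.74% of all windows and, among the 10 genes, only in that of Zfp42, at -186. A KLF box occurred in 31.5% of all windows and in those of 5 of the genes (Esrrb, Klf2, Nanog, Pou5f1 and Zfp42), with 4 matches in the Pou5f1 window shown. The SOX site occurred in 12.6% of windows and in those of Esrrb, Nanog and Pou5f1, for Pou5f1 in another window than the one shown. The ESRRB site (0.423% of windows) and the STAT site (1.15%) matched none of the 13 windows of the 10 genes. These are descriptions of letters in 1 stretch of DNA and say nothing of binding.

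The library totals of zygotes were 7183632 to 11296522 counts, and those of late 2-cell embryos 5727956 to 8916343. Blastocysts were measured by FPKM alone, a level scaled to transcript length and library size, whose relative depth, read from the spacing of low FPKM values, ran from 0.878 to 1.11. The labelled stages were set beside their markers. The summed FPKM of 6 oocyte and zygote markers was 3186 to 6193 in zygotes and 0 to 6.45 in blastocysts. In late 2-cell embryos it was 1210 to 3106 in WT and 1631 to 6879 in R442Q, where 4 of 5 embryos were at or above the lowest zygote. That of 15 trophectoderm markers was 1426 to 26360 in blastocysts and at most 478 in earlier embryos. That of 9 late 2-cell markers was 84.0 to 245 in zygotes and 161 to 3081 in late 2-cell embryos, where 1 WT embryo (replicate 2, at 161) lay within the range of zygotes. R442Q late 2-cell replicate 3 stood apart, with 16211 genes at an FPKM of at least 1 against 11984 to 14210 in the other 8 embryos of that stage, and with the highest sum of oocyte markers (6879). Its sum of cumulus cell markers (75.2) was close to those of WT replicates 1 (73.4) and 2 (69.0). Without R442Q replicate 3, 891 genes passed between genotypes at that stage in place of 580, and none of the 8 genes tested passed with or without it. The sum of all FPKM did not overlap between genotypes at the late 2-cell stage, at 712234 to 742246 in WT and 814376 to 976830 in R442Q embryos, so counts were tested there and FPKM served for levels.

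By FPKM the genes differed in their course through development. Nanog, Zfp42 and Tfcp2l1 were higher in every blastocyst than in every earlier embryo of the same genotype. Esrrb was highest in zygotes and Fgf4 at the late 2-cell stage in both genotypes. The stages come from tables that were normalised separately, with different symbol sets, so these levels across stages carry no test. In WT embryos 8 of 10 genes had their highest mean FPKM in blastocysts, against 5 in R442Q embryos, but after rescaling each library over the 43349 shared symbols the count was 5 in both. The 3 genes that moved in WT were Pou5f1, whose mean then peaked in zygotes, and Klf4 and Klf2, whose means then peaked at the late 2-cell stage.

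**Figure D1:**
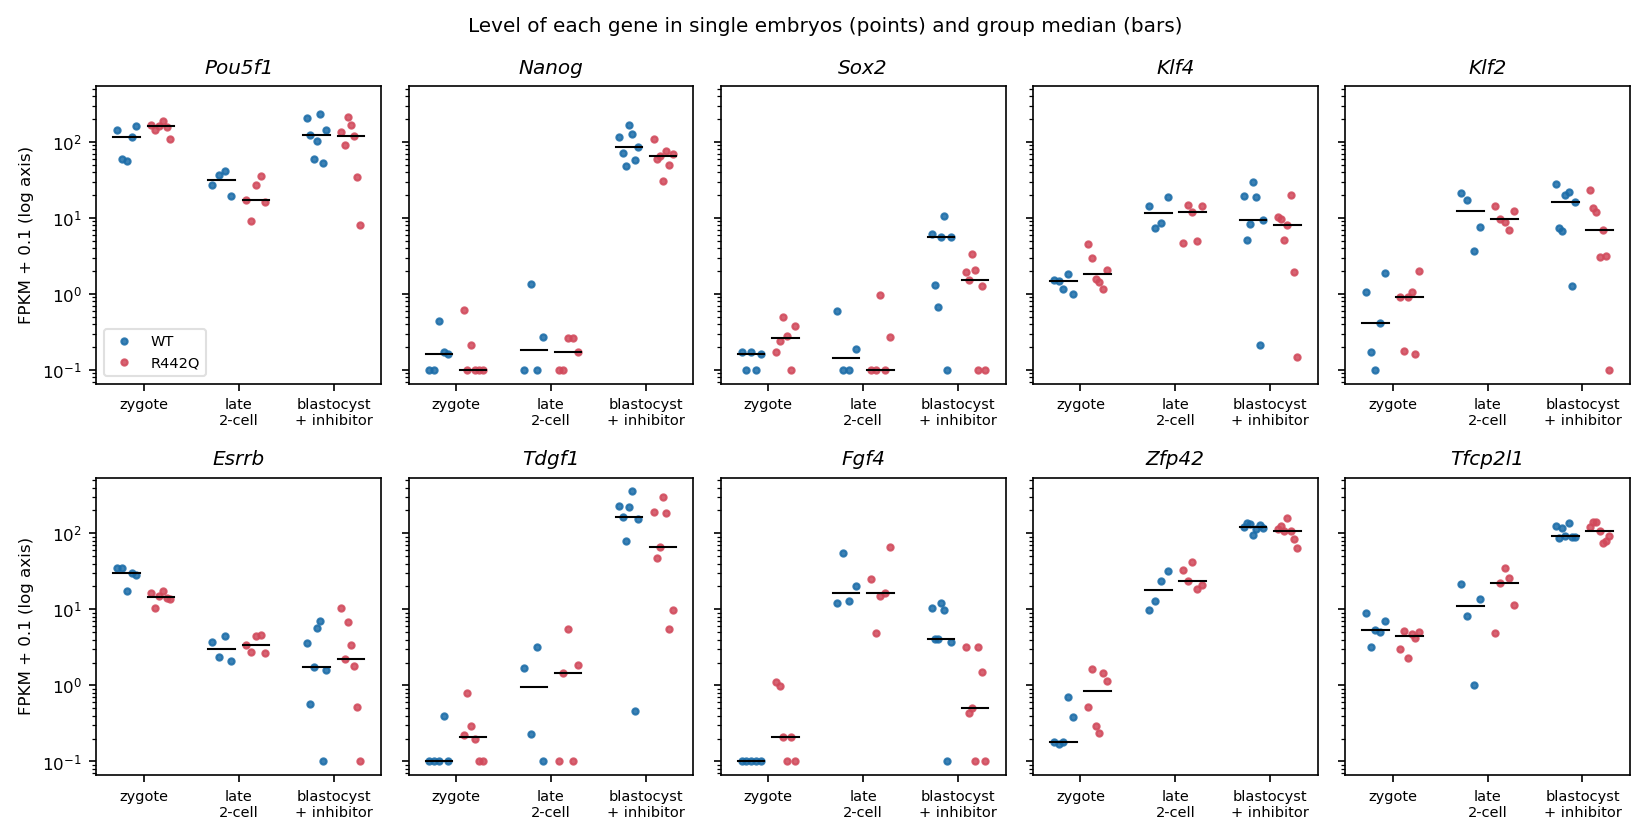
FPKM plus 0.1 on a log axis of each of the 10 genes in single embryos (points) at 3 stages, WT in blue and R442Q in red, with a bar at each group median. Nanog, Tdgf1, Zfp42 and Tfcp2l1 stand highest in blastocysts, Esrrb stands highest in zygotes, and single blastocysts lie far below their group for Tdgf1, Klf4 and Pou5f1.

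Pou5f1 (ENSMUSG00000024406.16; GRCm38 chromosome 17, 35506018 to 35510772, plus strand) encodes the POU factor OCT4 and was the only core factor with a high level before the blastocyst. Its FPKM in WT zygote replicates 1 to 5 was 142.72, 59.56, 56.39, 115.12 and 160.06, and in R442Q zygotes it ran from 108.45 through a median of 159.615 to 185.12. WT replicates 2 and 3 lay below all R442Q zygotes and the other 3 lay among them. At the late 2-cell stage the FPKM of WT embryos was 26.85, 36.81, 40.63 and 19.07, and that of R442Q embryos was 17.01, 8.87, 26.62, 34.99 and 16.29, so the groups overlapped and every late 2-cell embryo was below every zygote. In blastocysts it ran from 53.19 through 123.9 to 230.55 in WT and from 7.99 through 117.65 to 210.9 in R442Q embryos. Of its 50-base stretches 10.1% also occur in other annotated genes, most of them (9.54%) in Gm19553, an antisense gene that overlaps its exons. The use of strand in counting was not given in the sources used here, so reads from the overlapping stretch cannot be assigned to 1 of the 2 genes.

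Nanog (ENSMUSG00000012396.12; chromosome 6, 122707489 to 122714633, plus strand), the homeobox factor that marks the forming epiblast, was near 0 until the blastocyst. It had at most 6.92 counts in any of the 11 zygotes and at most 16.04 in any of the 9 late 2-cell embryos. In WT blastocysts its FPKM was 115.55, 71.74, 47.44, 165.7, 127.66, 58.32 and 84.51 in replicates 1 to 7, and in R442Q blastocysts 107.18, 59.96, 65.79, 30.1, 76.26, 49.84 and 69.4. The groups overlapped, with WT replicate 4 highest and R442Q replicate 4 lowest. Nanog has pseudogenes, and 4.61% of its stretches occur in other genes.

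Sox2 (ENSMUSG00000074637.7; chromosome 3, 34650405 to 34652461, plus strand), the partner of POU5F1 at joined sites, was low throughout. It had at most 10 counts in any zygote or late 2-cell embryo. In blastocysts its FPKM ran from 0 through a median of 5.45 to 10.45 in WT and from 0 through 1.44 to 3.30 in R442Q embryos. The 4 highest values were all WT (replicates 1, 4, 5 and 7), while the lower WT embryos lay among the R442Q embryos.

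Klf4 (ENSMUSG00000003032.8; chromosome 4, 55527143 to 55532466, minus strand) and Klf2 (ENSMUSG00000055148.7; chromosome 8, 72319033 to 72321656, plus strand), zinc finger factors of the naive network, were low in zygotes and present from the late 2-cell stage. The mean FPKM of Klf4 in WT embryos was 1.29 ± 0.327 (SD, n = 5) in zygotes, 12.2 ± 5.37 (SD, n = 4) in late 2-cell embryos and 12.9 ± 10.1 (SD, n = 7) in blastocysts. That of Klf2 was 0.63 ± 0.756, 12.3 ± 8.16 and 14.4 ± 9.66 (SD, same n). In R442Q embryos both had the same order from zygote to late 2-cell, at 2.19 ± 1.30 (SD, n = 6) and 10.03 ± 4.97 (SD, n = 5) for Klf4. For Klf2 these were 0.768 ± 0.671 and 10.4 ± 2.93. Their means in R442Q blastocysts were lower than at the late 2-cell stage, at 7.79 ± 6.63 for Klf4 and 8.80 ± 8.08 for Klf2 (SD, n = 7), where those in WT were slightly higher. After rescaling over the shared symbols the WT means were also lower in blastocysts, at 12.8 against 17.3 for Klf4 and 14.5 against 17.4 for Klf2. The late 2-cell and blastocyst levels of both genes overlapped in both genotypes.

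Zfp42 (ENSMUSG00000051176.6; chromosome 8, 43295063 to 43306980, minus strand), the zinc finger protein REX1 used as a marker of the naive state, stood higher at each stage. Its FPKM was 0.07 to 0.60 in WT zygotes, 9.66 to 32.27 in WT late 2-cell embryos and 94.83 to 137.68 in WT blastocysts. In R442Q embryos it was 0.14 to 1.56, 18.63 to 42.39 and 64.18 to 160.83. No 2 stages of 1 genotype overlapped. A pseudogene, Zfp42-ps1, shares 8.52% of its stretches.

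Tdgf1 (ENSMUSG00000032494.12; chromosome 9, 110939603 to 110946158, minus strand) had 0 to 9 counts in zygotes and 0 to 28 counts in late 2-cell embryos, where 1 of 4 WT and 2 of 5 R442Q embryos were at 0. In blastocysts it had the highest mean of the 10 genes, with an FPKM of 173 ± 115 in WT and 115 ± 112 in R442Q embryos (SD, n = 7 each). By median this held in WT (163.5) and not in R442Q embryos. There the median of Tdgf1 (66.88) was below those of Pou5f1 (117.65), Tfcp2l1 (108.68) and Zfp42 (108.04). By mean in WT, Pou5f1 (131 ± 68.5), Zfp42 (121 ± 14.6), Tfcp2l1 (106 ± 20.7) and Nanog (95.8 ± 42.3) followed, and the ranges of these 5 genes overlapped. Klf2, Klf4, Fgf4 (6.25 ± 4.47), Sox2 (4.19 ± 3.78) and Esrrb (2.84 ± 2.67) came after, with overlapping ranges, and their highest WT value (29.39, Klf4) was below the lowest of Pou5f1, Zfp42, Tfcp2l1 and Nanog. In R442Q blastocysts this held for Zfp42, Tfcp2l1 and Nanog, and not for Pou5f1, which was at 7.99 in replicate 7 where the highest of the lower genes was 23.3 (Klf2). The pseudogene Tdgf1-ps1 shares 8.86% of the stretches of Tdgf1.

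Esrrb, Fgf4 and Tfcp2l1 looked different in counts and in FPKM. FPKM divides by transcript length, and dividing counts by FPKM returns the length that the program RSEM, named in the submitters' processing notes, had effectively assigned to a gene in each embryo. For Klf2 (1 annotated transcript of 1847 bases) and Zfp42 (1744 to 1837 bases) this length was steady, at 1664 to 1753 and 1624 to 1730 in late 2-cell embryos. Their WT and R442Q lengths were nevertheless apart by a small margin, with a lowest value in WT of 1724 for Klf2 and 1670 for Zfp42 and a highest in R442Q of 1708 and 1656. The values below are for embryos with at least 10 counts.

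Esrrb (ENSMUSG00000021255.17; chromosome 12, 86361117 to 86521628, plus strand), an orphan nuclear receptor of the naive network, had an effective length of 617 to 847 in all 11 zygotes and of 1136 to 4169 in the 9 late 2-cell embryos, with no overlap. GENCODE M21 lists 6 Esrrb transcripts of 694 to 4300 bases, the shortest of which is noncoding. The Esrrb FPKM of WT zygotes was 34.74, 34.71, 17.52, 29.59 and 28.34 and that of WT late 2-cell embryos 3.63, 2.26, 4.34 and 1.97. In R442Q embryos it was 10.45 to 17.08 in zygotes and 2.57 to 4.50 at the late 2-cell stage. By FPKM the stages did not overlap in either genotype. By CPM, the count of a gene scaled to the total of its library, they did not overlap in WT (12.7 to 22.3 against 5.34 to 10.8), and overlapped in R442Q embryos (8.32 to 12.04 against 3.80 to 12.7).

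Fgf4 (ENSMUSG00000050917.5; chromosome 7, 144847367 to 144865243, plus strand) was at 0 counts in all 5 WT zygotes and at 9, 16, 3, 0, 3 and 0 counts in R442Q zygotes 1 to 6. WT late 2-cell embryos had 72, 493, 158 and 151 counts, and R442Q late 2-cell embryos 115, 32, 56, 57 and 374. Its effective length at that stage ran from 979 through 1273 to 1917 in WT and from 592 through 645 to 1166 in R442Q embryos, overlapping by R442Q replicate 2 alone (1166) and WT replicate 1 (979). The annotation has a transcript of 395 and one of 3030 bases. The mean FPKM of the genotypes was nearly equal, at 25.2 ± 20.7 (SD, n = 4) in WT and 25.2 ± 23.4 (SD, n = 5) in R442Q embryos, while the mean CPM was 33.3 ± 26.3 and 17.2 ± 14.8. In blastocysts the level was lower, as described below.

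Tfcp2l1 (ENSMUSG00000026380.10; chromosome 1, 118627945 to 118685168, plus strand), a factor that acts downstream of LIF and STAT3, had the widest range of effective length, from 289 to 9603 in late 2-cell embryos. Its annotated transcripts are a noncoding one of 478 bases and a coding one of 9269 bases. WT late 2-cell replicate 3, with 56 counts and an FPKM of 0.90, and R442Q replicate 4, with 45 counts and an FPKM of 26.06, had similar counts and far apart FPKM. The late 2-cell difference between genotypes therefore had opposite signs in the 2 units, at a log2 of -0.31 by counts and 1.02 by FPKM, and passed the test in neither. Blastocysts stood at an FPKM of 73.94 to 140.09, above every earlier embryo (highest 35.19). The part of isoform use and of RNA quality in these lengths was not tested.

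**Figure D2:**
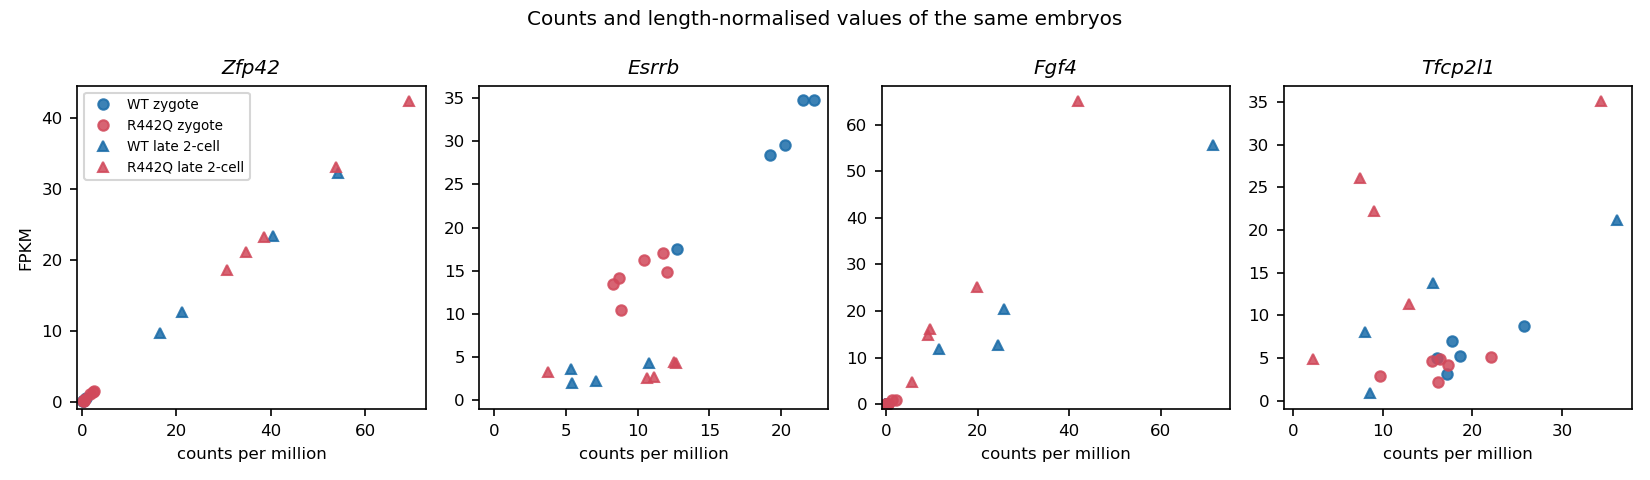
FPKM against CPM of 4 genes in single zygotes (circles) and late 2-cell embryos (triangles), WT in blue and R442Q in red. Zfp42 points fall on 1 line, Esrrb late 2-cell embryos lie below all zygotes in FPKM at CPM values that overlap those of R442Q zygotes, and Tfcp2l1 late 2-cell embryos with like counts differ widely in FPKM.

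The change from zygote to late 2-cell, the period of genome activation, was tested on counts with edgeR's quasi-likelihood test in 1 model of both stages and genotypes, with Benjamini-Hochberg adjustment over 16199 genes. A log2 change is given with its SE. Of the 10 genes 8 passed the filter on low counts, since Nanog and Sox2 were too low. Zfp42, Fgf4 and Tdgf1 were below this filter in zygotes alone. They entered through their late 2-cell level, so a fall could hardly have been seen for them. In WT embryos 4 rose and 2 fell, where 61.2% of all genes passed (36.2% higher and 25% lower). Zfp42 rose by 6.45 ± 0.71 (edgeR adjusted p 5.22e-08), Klf2 by 4.21 ± 0.89 (0.000315) and Klf4 by 3.04 ± 0.45 (3.72e-06). Zfp42 had 1 to 7 counts in WT zygotes, so the size of its rise rests on few counts. Fgf4 rose from 0 in all WT zygotes. Against a floor of 3 counts per library, at most 0.405 CPM, its mean of 33.3 CPM was at least 82.2-fold higher (edgeR adjusted p 2.45e-06). Without WT late 2-cell replicate 2 the mean was 20.6 CPM and the bound 50.7-fold, and the lowest embryo (11.6 CPM) was at least 28.7-fold higher. Pou5f1 changed by -2.14 ± 0.36 (2.37e-05) and Esrrb by -1.49 ± 0.39 (0.00225). Tfcp2l1 (-0.27 ± 0.51, edgeR adjusted p 0.663) and Tdgf1 (3.51 ± 1.62, 0.063) did not pass, although Tdgf1 did without WT zygote 4 (0.0139) or WT late 2-cell replicate 4 (0.0486). Oocyte markers summed to an FPKM of 4518 to 6193 in WT zygotes and 1210 to 3106 in WT late 2-cell embryos. Cumulus cell markers summed to at most 4.52 in zygotes and to 17.6 to 75.2 in late 2-cell embryos, with Inhba and Fshr at 0 in all of the latter. These markers did not move together. Of 6 tested, 2 rose and 2 fell in WT embryos (median log2 change -0.88), and 3 rose and 2 fell in R442Q embryos (1.14). The part of these RNAs in the changes was not tested.

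In R442Q embryos the same test passed 5 genes, where 65.1% of all genes passed (35.3% higher and 29.8% lower). They include Zfp42 and Fgf4, which again entered through their late 2-cell level. Zfp42 (4.92 ± 0.58), Klf2 (3.54 ± 0.79), Klf4 (2.36 ± 0.40) and Fgf4 (4.52 ± 0.87) rose and Pou5f1 changed by -3.19 ± 0.34, with edgeR adjusted p of 0.000425 or less for each. Esrrb did not pass (-0.18 ± 0.34, edgeR adjusted p 0.657), and its CPM was 10.02 ± 1.62 in R442Q zygotes (SD, n = 6) and 10.2 ± 3.67 at the late 2-cell stage (SD, n = 5). Tdgf1 (2.51 ± 1.37, edgeR adjusted p 0.112) and Tfcp2l1 (-0.54 ± 0.47, 0.318) did not pass either, although Tdgf1 did without R442Q zygote 2 (0.0367) and Tfcp2l1 without R442Q late 2-cell replicate 3 (-1.12, 0.0281), the embryo with the most genes detected at that stage. Oocyte markers summed to an FPKM of 3186 to 4568 (median 4109) in R442Q zygotes and 1631 to 6879 (median 4064) in R442Q late 2-cell embryos, so these overlapped, while those of WT embryos did not. The part of this in the R442Q changes and in their difference from WT was not tested.

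Whether the change differed between genotypes was tested as the interaction in the same model. Of the 8 genes 1 passed, where 10.1% of all genes passed (3.07% higher and 7.05% lower), and 7 of the 8 differences were below 0. The median of the 8 was -0.84 on the log2 scale, beside -0.16 for all genes tested. With DESeq2's size factors the latter was -0.0060, the split of calls went from 497 higher and 1142 lower to 707 and 917, and 7 of the 8 were still below 0. The median of the 8 was -0.43 without WT late 2-cell replicate 1 and -0.53 without R442Q zygote 2, with 6 of 8 below 0 in each. It was -0.48 without R442Q late 2-cell replicate 4 (7 of 8), and without R442Q late 2-cell replicate 1 it was -0.64 (6 of 8). The gene that passed was Fgf4 (-6.39 ± 1.77, edgeR adjusted p 0.0262). This value depends on the prior count, since the WT zygotes were all at 0, and is no measure of size. It missed the threshold without WT zygote 2 (edgeR adjusted p 0.0558), R442Q zygote 1 (0.0532), R442Q zygote 2 (0.0618) or WT late 2-cell replicate 2 (0.0622). For Esrrb the difference was 1.31 ± 0.51 (edgeR adjusted p 0.106), and it passed without R442Q late 2-cell replicate 1 (1.63, 0.0268) and with DESeq2 (1.48, adjusted p 0.0111). For Pou5f1 it was -1.04 ± 0.46 (0.159).

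Between genotypes within zygotes, Esrrb alone passed the test. Its counts were 174, 194, 101, 150 and 170 in WT replicates 1 to 5 and 75, 65, 114, 101, 82 and 94 in R442Q replicates 1 to 6. On the CPM scale the groups did not overlap, which held for 9.39% of the genes tested, and the lowest WT embryo (replicate 3, 12.7) lay just above the highest R442Q embryo (replicate 3, 12.04). The mean was 19.2 ± 3.81 CPM in WT (SD, n = 5) and 10.02 ± 1.62 in R442Q (SD, n = 6), a log2 difference of -0.82 ± 0.20 (edgeR adjusted p 0.0127). It was lower in R442Q under every alternative, with an adjusted p of 0.00235 to 0.323. It passed under 16 of 19 alternatives, and did not pass when both early stages were fitted in 1 model (-0.78, edgeR adjusted p 0.323).

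This was 1 call among the 5 genes that passed the filter, where 13.2% of 12420 genes passed (6.3% higher and 6.92% lower). Pou5f1 (0.50 ± 0.24, edgeR adjusted p 0.193), Klf4 (0.64 ± 0.37, 0.287), Klf2 (0.39 ± 0.87, 0.827) and Tfcp2l1 (-0.12 ± 0.20, 0.762) did not pass. Nanog, Sox2, Tdgf1, Fgf4 and Zfp42 were below the filter. Counts above 0 for Fgf4 were seen in 0 of 5 WT and 4 of 6 R442Q zygotes, and without the filter its difference passed (edgeR adjusted p 0.0163). Of 6 oocyte markers 2 were lower in R442Q zygotes, Zp3 (-1.35 ± 0.17, edgeR adjusted p 0.0002) and Mos (-1.52 ± 0.35, 0.00863), and the other 4 did not pass. Of 8 late 2-cell markers tested 6 were higher, and Tcstv1 and Tcstv3 did not pass (-0.45 and -0.44). The summed FPKM of the late 2-cell list overlapped, at 109 to 210 in WT (median 181) and 84.0 to 245 in R442Q (median 171). Of the other marker lists Krt18 (2.99 ± 0.59, 1 of 9 trophectoderm genes tested) and Pdgfra (2.09 ± 0.54, 1 of 8 primitive endoderm genes) were higher. The part of these marker changes in the Esrrb difference was not tested.

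At the late 2-cell stage none of the 8 genes tested passed, where 4.18% of 13883 genes passed (1.22% higher and 2.95% lower), and none had an unadjusted p under 0.05, where 21% of all genes did. With DESeq2 none of the 7 genes given an adjusted p passed (lowest 0.36), and Tdgf1 was given none. The smallest edgeR adjusted p was 0.495, for Fgf4 (-0.85 ± 0.65). Esrrb stood at 0.57 ± 0.58, Zfp42 at 0.52 ± 0.42, Tdgf1 at 0.53 ± 1.51 and Pou5f1 at -0.45 ± 0.45. On simulated data with a log2 change of 2, the test recovered 22.5% of changed genes at this stage, so these SEs leave room for sizeable differences.

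**Figure D3:**
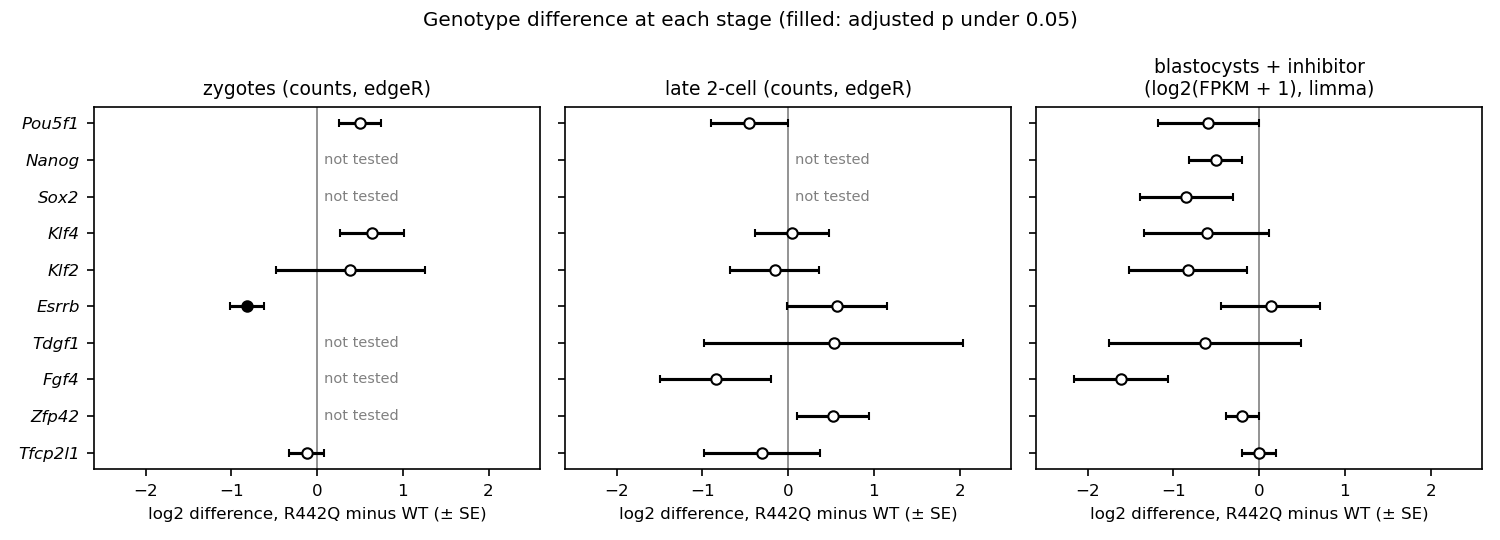
Log2 difference of R442Q minus WT with its SE for the 10 genes in zygotes and late 2-cell embryos (counts) and in blastocysts (log2(FPKM + 1)). Only Esrrb in zygotes is filled for an adjusted p under 0.05. Genes marked as not tested were below the filter on low counts.

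In inhibitor-treated blastocysts all 10 genes were tested with limma on log2(FPKM + 1), and none passed, where 0.00885% of 11297 genes (1 gene) passed. At an unadjusted p under 0.05 there was 1, Fgf4, where 7.4% of all genes were. Its FPKM was 10.27, 4.04, 3.95, 12.2, 9.72, 0 and 3.58 in WT replicates 1 to 7 and 3.12, 0.34, 0.40, 0, 3.07, 1.39 and 0 in R442Q replicates 1 to 7. Every WT embryo except replicate 6 lay above every R442Q embryo. The log2 difference was -1.61 ± 0.55 (limma p 0.00933, adjusted 0.388). The adjusted p was 0.129 to 0.799 over the alternatives.

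Of the 10 differences 8 were below 0, with a median of -0.60 beside -0.10 for all genes tested. Without WT replicate 6 all 10 were below 0 (median -0.95). Without R442Q replicate 7 it was 8 (median -0.20), and without WT replicate 6 and R442Q replicates 6 and 7, chosen after their values had been seen, it was 6 (median -0.45). The others nearest to Fgf4 in size were Sox2 (-0.85 ± 0.54, limma adjusted p 0.794), Klf2 (-0.83 ± 0.69, 0.848) and Tdgf1 (-0.63 ± 1.12, 0.938). Nanog was at -0.51 ± 0.30 (0.773) and Pou5f1 at -0.59 ± 0.59 (0.883). Zfp42 (-0.20 ± 0.20) and Tfcp2l1 (0.0027 ± 0.20) had the smallest SEs. The 10 genes are not independent of each other, as their relations across embryos show.

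Single blastocysts differed widely in some of the genes and little in others. The SD of log2(FPKM + 1) over the 14 embryos, with the genotype means taken out, was 2.47 for Tdgf1, which placed it at percentile 99.5 among 7940 genes with a mean FPKM of at least 5 (median SD 0.68). Klf4 (1.52, percentile 93.0) and Klf2 (1.43, 90.8) were also above percentile 90. Pou5f1 was at 1.27 (85.3), and Esrrb, Sox2 and Fgf4, which are below that mean, at 1.18, 1.09 and 1.10. Nanog was at 0.60 (41.1), Tfcp2l1 at 0.32 (7.52) and Zfp42 at 0.32 (7.27).

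Much of the wide spread came from 3 embryos. Tdgf1 was at an FPKM of 0.36 in WT replicate 6, 5.43 in R442Q replicate 6 and 9.63 in R442Q replicate 7, and at 46.68 to 359.59 in the other 11. These embryos were among the 3 lowest for 7, 7 and 8 of the 10 genes. Klf4 was at 0.11, 1.83 and 0.05 in them and at 4.95 to 29.39 in the others, and Pou5f1 was at 53.19, 34.44 and 7.99 against 58.82 to 230.55. Nanog (58.32, 49.84 and 69.4), Zfp42 (130.31, 84.31 and 64.18) and Tfcp2l1 (90.14, 79.06 and 91.48) were present at levels near or within those of the others.

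Other measures moved with these 3 embryos. The number of genes with an FPKM of at least 1 was 9852, 10962 and 8189, against 10714 to 12191 in the others, at a relative depth of 1.10, 1.11 and 0.944. Of 12 primitive endoderm markers 3, 5 and 2 reached an FPKM of 1, against 6 to 10. Their summed FPKM was 572, 580 and 562, within the 214 to 836 of the others. The trophectoderm sum was 16013, 16022 and 7426, within 1426 to 26360. Oocyte markers were at 0 to 0.11 and cumulus cell markers at 0 to 8.55. The part of embryo quality, cell number and RNA recovery in their low values was not tested. Without these 3 embryos, left out after their values had been seen, the SD of Tdgf1 was 0.926, that of Pou5f1 0.615, and none of the 10 genes was above percentile 90. Since the 3 were the lowest for Tdgf1, the fall of its SD was set by their choice. Not all SDs fell, and that of Nanog was then 0.649 (percentile 62.7). Without WT replicate 6 alone the SD of Tdgf1 was 1.66 and 1 gene was above percentile 90.

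**Figure D4:**
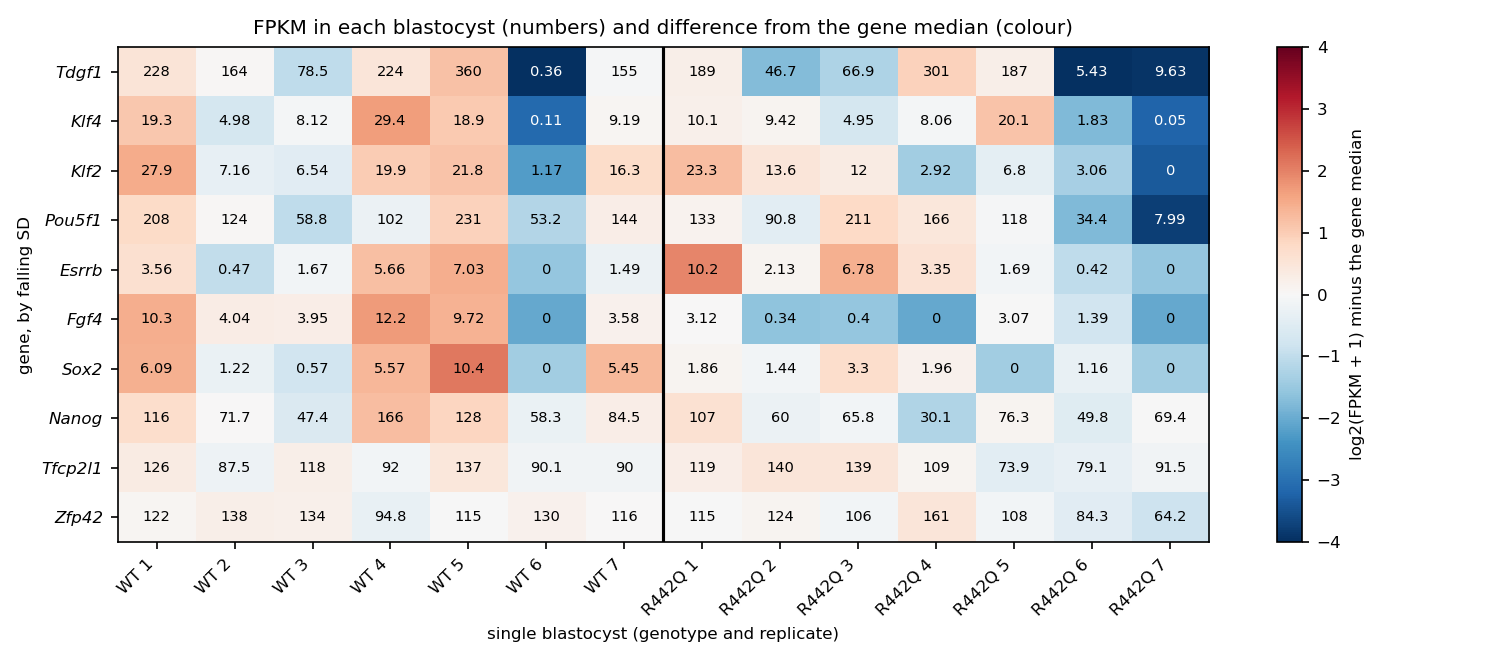
FPKM of the 10 genes (numbers) in each of 14 single blastocysts, coloured by the difference of log2(FPKM + 1) from the median of the gene, with genes ordered by SD. WT 6, R442Q 6 and R442Q 7 are lowest for Tdgf1, at 0.36, 5.43 and 9.63, while Tfcp2l1 and Zfp42 vary little.

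Relations between the genes across the 14 blastocysts were measured for all 45 pairs on log2(FPKM + 1), with two-sided permutation tests adjusted over the pairs. Pearson's r was above 0 in 44 pairs and passed in 23, Spearman's rho passed in 18, and 17 pairs passed in both. The highest were Klf4 with Tdgf1 (r 0.876, permutation adjusted p 0.0072, rho 0.723, 0.020) and Klf4 with Klf2 (r 0.849, 0.0072, rho 0.758, 0.020). Without the 2 embryos farthest from the median of the first gene these were 0.750 and 0.626. Nanog followed Fgf4 (r 0.760, permutation adjusted p 0.010, rho 0.713, 0.020, 0.640 without 2 embryos), and Pou5f1 followed Sox2 (r 0.674, 0.016, rho 0.788, 0.020, 0.722). Pou5f1 and Nanog had an r of 0.272 (0.39, rho 0.420, 0.20). Within genotypes (n = 7 each) their r was 0.682 in WT and -0.068 in R442Q, which were not tested against each other.

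The number of pairs that passed depended on the 3 embryos. Over the other 11, with fewer embryos to test, 1 pair passed, Nanog with Klf2 (r 0.865, permutation adjusted p 0.023), and by rho none did. Nanog with Fgf4 had an r of 0.815 (0.053), Klf4 with Tdgf1 had 0.517 and Pou5f1 with Klf4 0.054. Other pairs that had passed over 14 embryos had an r above that of Klf4 with Tdgf1, among them Pou5f1 with Sox2 (0.629), Sox2 with Klf2 (0.665), Klf4 with Fgf4 (0.672) and Klf2 with Fgf4 (0.601). With all 14 embryos the r of Zfp42 passed only with Pou5f1 (0.674, permutation adjusted p 0.035), where rho was 0.226 (0.56), and that of Tfcp2l1 only with Esrrb (0.635, 0.035). Over 11 embryos the r of Zfp42 with Pou5f1 was -0.075 and that with Nanog was -0.775, which did not pass (0.092). With columns rescaled by the trimmed mean of M values 20 pairs passed by r, 11 by rho and 11 by both, and r was above 0 in 36. With genotype means taken out these counts were 22, 15, 13 and 43.

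**Figure D5:**
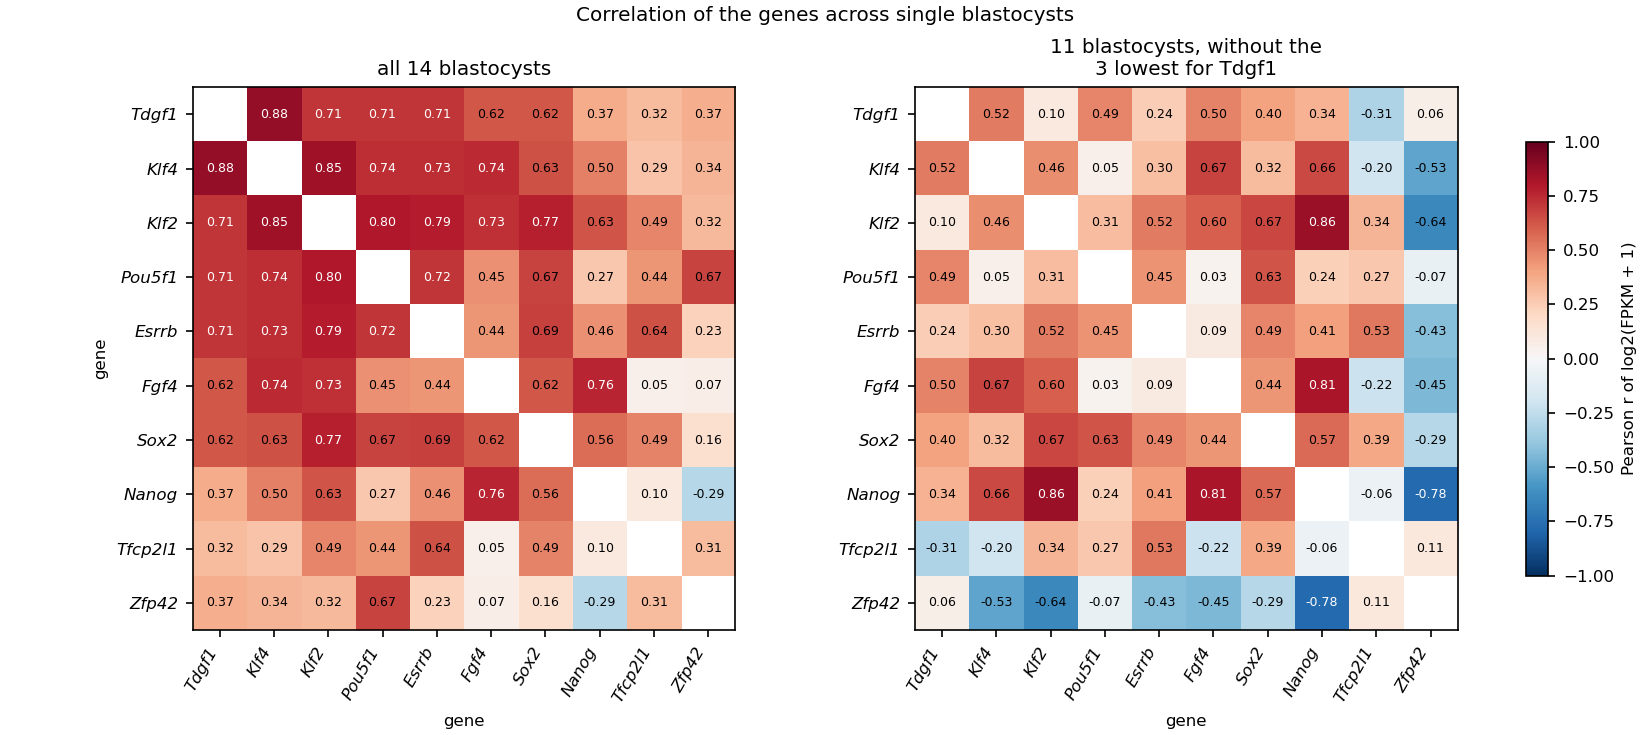
Pearson r of log2(FPKM + 1) between the 10 genes over all 14 blastocysts (left) and over 11 without the 3 lowest for Tdgf1 (right). The block of high values among Tdgf1, Klf4, Klf2, Pou5f1 and Esrrb at left is weaker at right. Nanog stands at 0.86 with Klf2 and 0.81 with Fgf4 at right, and at 0.63 and 0.76 at left.

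Genes outside the set whose pattern across the 14 blastocysts was most like a core factor were ranked by r after taking out genotype means, among 7933 genes. For Pou5f1 they were Gemin5 (0.977), Fam222b (0.967) and Tbx3 (0.962), a T-box factor of the naive network. For Nanog they were 3110040N11Rik (0.853), Knstrn (0.853) and Ubd (0.836), and for Sox2 Gm5617 (0.890), Coprs (0.880) and Aarsd1 (0.876). These are descriptions over 14 libraries that include the 3 embryos above.

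The other genes of the pathways came from lists of named genes. Among 25 further naive pluripotency and early epiblast genes, 15 rose and 3 fell of 23 tested from zygote to late 2-cell in WT embryos (all genes, 36.2% and 25%), and 15 rose and 4 fell in R442Q embryos (35.3% and 29.8%). The clearest were Fbxo15 (4.77 ± 0.25 in WT and 4.70 ± 0.23 in R442Q) and Dppa4 (4.81 ± 0.37 and 5.75 ± 0.35), both pluripotency-associated genes. In zygotes 4 of 16 were higher in R442Q and none lower, beside 6.3% and 6.92% of all genes, namely Dppa3 (0.44 ± 0.08, edgeR adjusted p 0.00191), Tbx3 (1.32 ± 0.27, 0.00409), Tcl1 (0.41 ± 0.10, 0.0109) and Fbxo15 (0.58 ± 0.16, 0.027). The last missed the threshold without WT zygote 1 or 2 or R442Q zygote 1 or 2, with an edgeR adjusted p of 0.00636 to 0.172 over the alternatives. When both early stages were fitted in 1 model, Tbx3 passed and the other 3 did not (edgeR adjusted p 0.172 to 0.62). The median of the list was 0.11, beside 0.01 for all genes.

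Tbx3 passed the test between genotypes in both early stages, in opposite directions. Its counts were 82, 102, 73, 55 and 66 in WT zygotes and 89 to 297 in R442Q zygotes, and 737, 709, 1105 and 856 in WT late 2-cell embryos against 110, 207, 219, 120 and 512 in R442Q late 2-cell embryos. On the CPM scale the WT and R442Q late 2-cell embryos did not overlap, which held for 12.4% of the genes tested. In zygotes 1 R442Q embryo lay within the WT range. It rose by 3.79 ± 0.36 in WT embryos (edgeR adjusted p 4.36e-09), stood at 0.48 ± 0.30 in R442Q embryos (0.16), and the difference of these changes passed (-3.31 ± 0.46, edgeR adjusted p 0.000113, at most 0.0012 over the alternatives). Within late 2-cell embryos it was the 1 gene of 23 tested in the list that passed, where 2.95% of all genes were lower. The difference was -1.91 ± 0.36 (edgeR adjusted p 0.0134, range over the alternatives 2.49e-05 to 0.143). It missed the threshold under more than 1 alternative, among them with a length and GC trend removed (-1.09, edgeR adjusted p 0.0871).

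Of 7 genes of LIF and STAT3 signalling, the pathway upstream of Tfcp2l1 and Klf4 in embryonic stem cells, none of 6 tested passed in zygotes (1 at an unadjusted p under 0.05, where 27.1% of all genes were) and 1 of 6 tested, Socs3, a feedback inhibitor, was lower in R442Q late 2-cell embryos, where 2.95% of all genes were lower (-3.29 ± 0.64, edgeR adjusted p 0.0136). Its counts were 350, 2008, 407 and 537 in WT and 72, 9, 135, 79 and 111 in R442Q embryos, and as for Tbx3 the groups did not overlap. The medians of the marker sums also differed between these groups, at 612 FPKM in WT and 2507 in R442Q for late 2-cell markers and 1484 and 4064 for oocyte markers. The sums overlapped, at 161 to 1664 and 826 to 3081 for late 2-cell markers and 1210 to 3106 and 1631 to 6879 for oocyte markers. None of the 9 late 2-cell and 6 oocyte markers tested passed by counts, and the total of all FPKM itself differed between these groups. The part of this in the Tbx3 and Socs3 differences was not tested. Without WT replicate 2 the edgeR adjusted p was 0.0647, and over the alternatives it was 4.86e-06 to 0.191. The change from zygote to late 2-cell differed between genotypes for 2 of 6 tested, both lower in R442Q embryos, where 7.05% of all genes were lower. They were Socs3 (-3.56 ± 0.87, 0.0106) and Stat3 (-1.37 ± 0.28, 0.00297). For Socs3 it missed the threshold without WT late 2-cell replicate 2, at an edgeR adjusted p of 0.0704.

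Of 16 genes of FGF and ERK signalling, which carries the FGF4 signal, 2 of 12 tested were higher and 1 lower in R442Q zygotes, beside 6.3% higher and 6.92% lower of all genes. They were Map2k1 (0.52 ± 0.11, edgeR adjusted p 0.00541), Dusp6 (2.38 ± 0.59, 0.0133) and Map2k2 (-0.75 ± 0.24, 0.0474, up to 0.361 over the alternatives). At the late 2-cell stage only Map2k2 of this list passed, where 2.95% of all genes were lower (-1.86 ± 0.42, edgeR adjusted p 0.0243, missed without WT replicate 2 or R442Q replicate 2, at most 0.24 over the alternatives). The change between the stages was lower in R442Q embryos for 4 of 15 (7.05% of all genes), Map2k1, Spry4, Spry2 and Fgfr3, of which Map2k1 (-1.43 ± 0.31, edgeR adjusted p 0.00442) passed under every alternative. The other 3 did not, with an edgeR adjusted p of up to 0.0999 for Spry4, 0.119 for Spry2 and 0.0963 for Fgfr3 when 1 embryo was left out. In the joint model neither Map2k1 (0.223) nor Dusp6 (0.109) passed in zygotes.

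Of 13 genes of Nodal signalling, in which TDGF1 acts, 1 of 8 tested was lower in R442Q zygotes and none higher, where 6.92% of all genes were lower and 6.3% higher. It was Furin, a protease that processes Nodal (-0.86 ± 0.23, edgeR adjusted p 0.0194, up to 0.441 over the alternatives). None of the 10 tested passed at the late 2-cell stage, where 2 had an unadjusted p under 0.05 (21% of all genes). Of 10 primed epiblast genes 3 were tested in zygotes and 4 at the late 2-cell stage, none passed between genotypes, and none had an unadjusted p under 0.05. In blastocysts limma passed none of the 23 naive, 5 LIF and STAT3, 10 FGF and ERK, 8 Nodal and 2 primed genes tested, and 2 naive and 1 FGF and ERK genes had an unadjusted p under 0.05 (7.4% of all genes). The medians there were -0.32 for the naive list, -0.54 for the FGF and ERK list, -0.09 for the LIF and STAT3 list, 0.02 for the Nodal list and -0.21 for the 2 primed genes, beside -0.10 for all genes tested.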

How the data were processed

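RNA of single embryos was sequenced after SMART-seq2 amplification, per the labels' protocols. The deposited zygote and late 2-cell tables hold estimated counts per gene symbol, and the deposited FPKM tables of all 3 stages hold values that the authors scaled to transcript length and library size, made with RSEM on mm10 per the submitters' processing notes. The aligner, the annotation and the use of strand were not given in the sources used here. No column was left unmapped to a sample, and no 2 columns held identical values. Nothing in the labels names a mother or culture for an embryo, so p-values measure the spread between single embryos.

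Counts were rounded and tested in R 4.3.3 with edgeR 4.0.16 (filterByExpr with a minimum count of 10, TMM scaling, quasi-likelihood test). DESeq2 1.42.0 was an alternative. For blastocysts, limma 3.58.1 was run on log2(FPKM + 1) where 7 or more embryos reached an FPKM of 1. Calls needed a p under 0.05 after Benjamini-Hochberg adjustment over all genes tested in a comparison. Permutation tests drew 100000 resamples in NumPy 2.4.6, with ranks and the adjustment over pairs from SciPy 1.17.1. The tests were checked on simulated data, where a log2 change of 2 was recovered for 83% of changed genes in zygotes, 22.5% in late 2-cell embryos and 69% in blastocysts.

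All 10 genes were reported. From the lists, up to 2 genes per list and comparison with the smallest p past the threshold were named by rule, and list genes beyond these (Tcl1, Fbxo15, Map2k2, Spry2 and Fgfr3 between genotypes, and Nodal, Fgfr1, Fgfr2 and Dppa3 in blastocysts) were named after their values had been seen. The genes, lists and tests were chosen with earlier results of these data known. Relative depth of blastocysts was read from FPKM values of 0.1 to 0.5, a method that missed the known totals by at most 1.88% in zygotes and 7.64% in late 2-cell embryos. Positions and shared stretches come from GENCODE M21 (GRCm38), promoters from RefSeq, where all 10 genes matched. The libraries had no molecular identifiers, so floors speak of counting error alone.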

Additional observations from a re-analysis of the deposited data

Results flagged for a closer look

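Of 46 groups of 4 to 7 embryos examined, 5 held an embryo far from the rest by Dixon's test on the log2 scale, and chance flags about 1 in 20 groups. Esrrb in WT zygote replicate 3 stood at 12.7 CPM, below the other WT zygotes. Tfcp2l1 in WT zygote replicate 1 stood at 25.7 CPM, above the others. Esrrb in R442Q late 2-cell replicate 1 stood at 3.80 CPM, below the others. In blastocysts, WT replicate 6 stood apart for both Tdgf1 (0.36 FPKM) and Fgf4 (0 FPKM).

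The change of Fgf4 from zygote to late 2-cell differed between genotypes in the interaction test, with a log2 difference of -6.39 whose size depends on the prior count.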

How the results depend on the processing

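All listed alternatives were run, and the omission of 3 blastocysts and a block by column number were chosen after seeing the data. Of 2730 fold changes of the 10 genes and of named list genes, 2487 kept their direction and their side of the threshold, 200 lost the call, 7 gained it and 36 turned. The cause was not tested for any of these.

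In zygotes 1643 genes passed and 270 did when both early stages were fitted in 1 model. Of the 10 genes 1 passed, 2 did without the filter on low counts and 0 in the joint model. The split of 783 higher and 860 lower genes was 426 and 1222 on FPKM and 197 and 73 in the joint model. In late 2-cell embryos 580 genes passed, and 1683 did with DESeq2, 889 without the filter and 2507 in the joint model. Leaving out 1 embryo gave 142 to 891, with 351, 142, 283 and 209 without WT replicates 1 to 4, and 372 and 891 without R442Q replicates 2 and 3. The difference of the stage changes passed for 1639 genes, and for 1089 to 2311 without 1 embryo (1089 without WT zygote 2). Of the 10 genes 1 passed, 2 did with DESeq2 and 0 to 2 without 1 embryo. Its split of 497 and 1142 was 707 and 917 with DESeq2's size factors and 1136 and 1310 with DESeq2, and all-gene medians moved from -0.16 to -0.0060 with the former. In blastocysts 1 gene passed, 0 did without the filter on low values and 0 without the 3 embryos lowest for Tdgf1. With TMM scaling 3 passed, with array weights 5, and without 1 embryo 0 to 30 (30 without WT replicate 7).

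Directions turned only for differences that did not pass. At the late 2-cell stage Klf4 was at -0.0173 without the filter, -0.31 on FPKM and -0.0067 in the joint model. Klf2 was at 0.52 and Tfcp2l1 at 0.0407 with a length and GC trend removed, and Tfcp2l1 was at 1.02 on FPKM. In blastocysts without the 3 embryos Pou5f1 was at 0.0707 and Zfp42 at 0.0265, and with array weights Tfcp2l1 was at -0.0513. Leaving out 1 embryo moved Klf2 (-0.0883 to 1.30) and Tfcp2l1 (-0.23 to 0.0127) in zygotes, and Klf4 (-0.15 to 0.22), Klf2 (-0.47 to 0.16) and Tfcp2l1 (-0.95 to 0.25) at the late 2-cell stage. It moved Tdgf1 (-3.86 to 0.37) and Tfcp2l1 (-0.75 to 0.42) in the difference of changes, and Esrrb (-0.16 to 0.42) and Tfcp2l1 (-0.0675 to 0.0847) in blastocysts.

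By FPKM 8 of 10 genes peaked in WT blastocysts, and 5 after rescaling over shared symbols. The count of genes above percentile 90 of the spread was 3, and 6 with a pseudocount of 0.1, 0 without the 3 embryos and 1 to 3 without 1 embryo. The count of related pairs was 23, and 1 without the 3 embryos, where the r of Pou5f1 and Zfp42 was -0.075.

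Replicate numbers were shared between groups but did not pair the embryos. The correlation of same-numbered deviations ran from -0.168 to 0.207, and in no stage did every embryo correlate best with its own number. With the replicate block 1217 genes passed in zygotes, 58 in late 2-cell embryos, 1085 for the difference of changes and 0 in blastocysts. Esrrb in zygotes then had an edgeR adjusted p of 0.0682 and Pou5f1 one of 0.0446, and Klf4 at the late 2-cell stage was at -0.27. In the deposited column names some zygotes and late 2-cell embryos carry other numbers than in their titles. These did not pair the embryos either, with correlations of -0.144 to 0.0409. With a replicate block by column number 1004 genes passed in zygotes, 0 in late 2-cell embryos (2158 at an unadjusted p under 0.05) and 958 for the difference of changes, and of the 10 genes none passed in any of these. Esrrb in zygotes had an edgeR adjusted p of 0.0545 and Fgf4 in the difference of changes one of 0.0803, and at the late 2-cell stage Klf4 was at -0.51 and Tdgf1 at -0.36.

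Depth limits Nanog, Sox2, Tdgf1, Fgf4 and Zfp42 in zygotes, where they were below the filter and most libraries held few counts. Blastocysts have no counts, so no counting floor applies there.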

Other observations

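Nodal, the ligand for which TDGF1 is a coreceptor, was below the filter on low values in blastocysts and was singled out after its values had been seen. It was at an FPKM of 3.5, 0, 2.45, 8.1, 3.12, 0 and 12.21 in WT replicates 1 to 7 and was listed at 0 in every R442Q blastocyst except replicate 3 (0.85). It was at 0 counts in all 11 zygotes and reached 87 counts in R442Q late 2-cell replicate 3, the embryo with the most genes detected at that stage. These values carry no test.

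Fgfr1 and Fgfr2 encode FGF receptors. In blastocysts the FPKM of Fgfr1 ran from 3.19 through a median of 9.39 to 17.16 in WT and from 0.23 through 17.25 to 23.06 in R442Q embryos. That of Fgfr2 ran from 14.3 through 25.3 to 43.13 in WT and from 7.53 through 19.15 to 27.2 in R442Q embryos. Dppa3, a maternal factor that protects the early embryo's DNA methylation, had an FPKM of 1819 to 11007 in WT and 2853 to 8244 in R442Q blastocysts, far above the 10 genes described.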
